A study of Mus musculus with 12 samples.

Results

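Genes that spend arginine, or that make, break down and restrain polyamines, were followed through a tumour treatment experiment. They were taken by symbol, and 7 of the 19921 gene symbols in the count tables carry these names: Arg1, Arg2, Nos2, Odc1, Srm, Sat1 and Oaz1. Oaz1 encodes an inhibitor protein and the others encode enzymes. The samples were subcutaneous Colon26 tumours, grown from a mouse colon carcinoma line in BALB/c wild-type mice, 1 tumour-bearing mouse per sample. The 4 groups of 3 mice each were compared. The combination group received the peptide minP1 and the anti-PD-L1 antibody. The anti-PD-L1 group received the antibody alone, the minP1 group the peptide alone, and the control group (Ct) neither. All 12 mice shared the strain and the tumour, implanted as 200000 cells in the right flank. Per the labels' protocols, each dose of anti-PD-L1 (clone 10F.9G2) was 200 µg, injected into the peritoneum on day 4 and again on day 8. A dose of 0.08 µg of minP1, an immunostimulatory peptide derived from HMGN1, followed by the same route on day 9, and tumours were collected on day 10. The peptide in the combination group is named by the sample titles only, so its results rest on those titles.

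Arginine is shared by competing enzymes. The arginases ARG1 (cytosolic) and ARG2 (mitochondrial) split it into urea and ornithine, while inducible nitric oxide synthase (NOS2) turns it into nitric oxide and citrulline. Myeloid cells of tumours are known for arginase activity, which can deplete the arginine that T cells need. Ornithine feeds the polyamines: ODC1 makes putrescine from it, SRM makes spermidine from putrescine, and SAT1 acetylates spermidine and spermine for breakdown or export. OAZ1, the antizyme, binds ODC1 and sends it to the proteasome, and AZIN1 binds the antizyme in ODC1's place.

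Counts came from 5′-end tags of polyadenylated RNA, 1 tag per captured transcript end, from whole digested tumours after tumour cells and dead cells had been reduced on Percoll. The libraries were shallow and their depth differed between groups. Totals were 133917 to 196109 counts in the combination, 188008 to 322493 in anti-PD-L1, 276203 to 322613 in minP1 and 285753 to 473273 in control. Levels are CPM, each gene's counts relative to the library's total over the genes that passed the filter on low counts. That total was scaled by the trimmed mean of M-values (TMM). The filter's own CPM used the whole library total, unscaled. A single count was worth 5.64 to 8.54 CPM in a combination library and 2.24 to 3.66 CPM in a control library. The transcripts Bc1 and Lrrc17, whose reads may be shared, together took 2.49% to 6.32% of combination counts, 2.35% to 4.42% of anti-PD-L1 counts, 1.5% to 4.17% of minP1 counts and 1.36% to 2.34% of control counts. In every group 1 library stood apart from the other two by a chi-square distance of their counts per degree of freedom. Combination replicate 3 was at 3.27 and 3.46 from its replicates (1.85 between them), anti-PD-L1 replicate 1 at 3.0 and 3.10 (1.79), minP1 replicate 2 at 3.86 and 4.50 (1.56) and control replicate 1 at 3.45 and 4.48 (1.93). All results were refitted without these 4 libraries, a choice made after the data were seen. Epithelial markers summed to 8.54 to 65.6 CPM in the combination and 21.9 to 34.3 CPM in control, so carcinoma transcripts of this list were sparse in every group. Macrophage markers were present (10 of 10 with counts). In these mixed-cell libraries, fewer cells of a type and less RNA per cell cannot be told apart.

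A value after ± is the SE where it follows a log2 fold change, and the SD over 3 libraries where it follows a level in CPM. Adjusted p-values are from edgeR's quasi-likelihood test with Benjamini-Hochberg adjustment over the 5443 genes with enough counts, and a gene was called below 0.05. Of the 7 genes, 5 passed that filter. Nos2 and Srm did not, and Arg2 passed through the combination: 4 libraries exceeded the filter's 34.8 CPM, 3 of them in the combination and 1 in anti-PD-L1. A gene that enters this way has to lie high in the combination, so its filtered calls are a description, and a fit over all 19921 symbols with no filter is given beside them. That fit called 9.66% of symbols in the combination against control, 5.03% against minP1 and 1.99% against anti-PD-L1. In the combination against control, 34.8% of the genes tested were called and 16.5% were called higher, so a call in that comparison was common. Separation was common too: in 45.9% of the genes tested the combination libraries lay entirely on 1 side of the control libraries. No such share is given for separation from all 9 other libraries, or of anti-PD-L1 from control. Where a gene is said to separate so, this is a description. The combination against anti-PD-L1 had 6.94% called, with 2.99% higher, and the combination against minP1 had 20.0% called, with 9.19% higher. Anti-PD-L1 against control had 1.12% called. MinP1 against control had 0% called (383 genes had an unadjusted p below 0.05), and so had the interaction (600 genes).

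**Figure D1:**
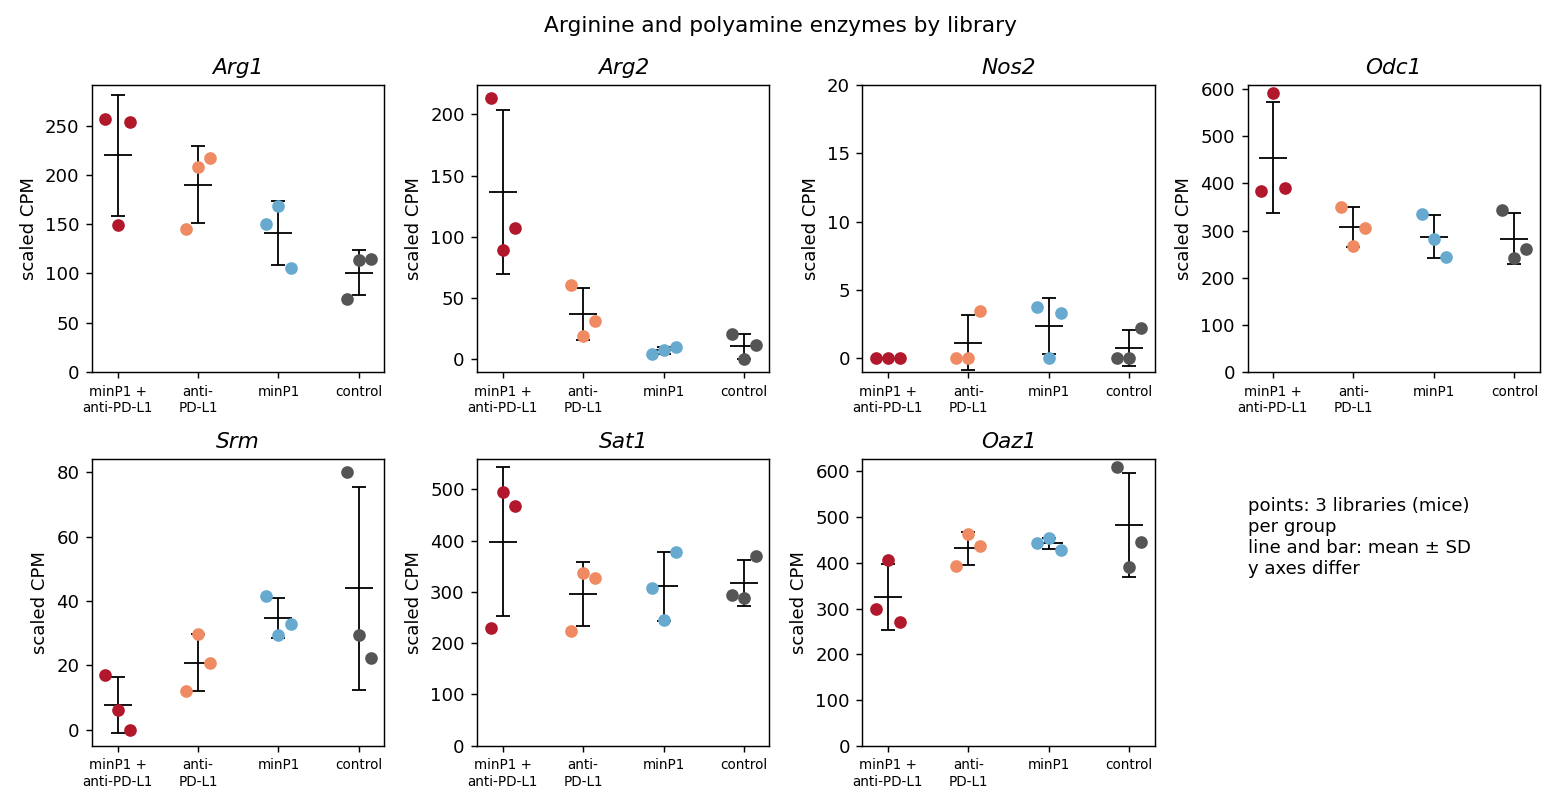
Level of each of the 7 genes (scaled CPM, linear axes that differ between panels) in the combination, anti-PD-L1, minP1 and control groups from left to right. Each point is 1 library and each bar is the mean of 3. The Arg1, Arg2 and Odc1 points of the combination lie above all control points, and Nos2 is at or near 0 in all 12 libraries.

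Both arginases were called higher in the combination than in control, Arg1 at a moderate level in every group and Arg2 from few counts outside the combination. Arg1 (chromosome 10, 24915221 to 24927484, minus strand, GRCm38) was measured at 256, 149 and 254 CPM in the 3 combination libraries. It was at 145, 208 and 217 CPM in anti-PD-L1, 151, 168 and 105 CPM in minP1, and 74.4, 113 and 114 CPM in control. Every combination and every anti-PD-L1 library exceeded every control library, while minP1 overlapped control. Arg1 rose by 1.11 ± 0.30 in the combination against control (adjusted p = 0.00615, a 2.16-fold difference), and this call held under all 23 alternative settings, with differences of 0.83 to 1.53. In anti-PD-L1 against control the difference was 0.93 ± 0.29 with an adjusted p of 0.1 (0.92 and 0.0399 without the 4 libraries that stood apart), and in minP1 it was 0.48 ± 0.29 with an adjusted p of 0.794. By group mean Arg1 stood at 220 ± 61.1 CPM in the combination, then 190 ± 39.1 in anti-PD-L1, 141 ± 32.5 in minP1 and 101 ± 22.7 in control. Libraries of neighbouring groups in that order overlapped, and minP1 was not called against control nor the combination against anti-PD-L1, which differed by 0.18 ± 0.29 (95% interval -0.42 to 0.78, adjusted p = 0.749). Against minP1 alone the combination's difference was 0.63 ± 0.30 (adjusted p = 0.132), and it was called, at 0.91 with an adjusted p of 0.0424, once all libraries were thinned to equal depth.

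Arg2 (chromosome 12, 79130777 to 79156301, plus strand) gave 213, 89.5 and 107 CPM in the combination, from 25, 15 and 19 counts. Anti-PD-L1 libraries held 60.4, 18.5 and 31.0 CPM, minP1 libraries 3.76, 7.32 and 9.88 CPM, and control libraries 20.0, 0 and 11.2 CPM. The lowest combination library was above the highest library of every other group, control overlapped both lone treatments, and all anti-PD-L1 libraries exceeded all minP1 libraries. Without a filter Arg2 was higher than in control by 3.45 ± 0.49 in the combination (adjusted p = 3.42e-10), and in the filtered fit by 3.52 ± 0.56 (adjusted p = 5.52e-05). The summed counts were 59 in the combination and 12 in control, a scaled ratio of 11.4 with a 95% exact counting interval of 6.05 to 23.3. With the number of genes detected at equal depth as a covariate in the filtered fit the difference was 2.26 and the call was lost (adjusted p = 0.0762). The gene overlaps the antisense transcript Gm48780 and the 3′ end of Vti1b, and whether counting used strand is not given in the sources used here.

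Arg2 was called in the combination against each lone treatment as well. With no filter it rose by 4.05 ± 0.55 against minP1 (adjusted p = 1.5e-10) and by 1.84 ± 0.44 against anti-PD-L1 (adjusted p = 0.00436). In the filtered fit, which Arg2 entered through the combination, the difference from minP1 was 4.13 ± 0.63 (adjusted p = 1.02e-04), a call made under all 22 settings that gave a value. The filtered difference from anti-PD-L1 was 1.94 ± 0.51 (adjusted p = 0.0212), on 59 counts in the combination and 24 in anti-PD-L1. This second call was lost without combination replicate 1 (1.54, adjusted p = 0.172), and without anti-PD-L1 replicate 2 (1.60, adjusted p = 0.117) or 3 (1.86, adjusted p = 0.106). Those fits had 94, 129 and 111 calls over all genes tested, against 378 in the main fit. With the detected-genes covariate the Arg2 call was lost at 1.60 (adjusted p = 0.0506), with 328 calls over all genes. In neither lone treatment was Arg2 called against control, at 1.58 ± 0.64 in anti-PD-L1 (adjusted p = 0.189) and -0.61 ± 0.83 in minP1 (adjusted p = 0.930). The interaction, which asks whether adding minP1 had another effect on top of anti-PD-L1 than on control mice, was 2.55 ± 0.98 for Arg2 (95% interval 0.52 to 4.58), and it was not called (adjusted p = 0.351).

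Within a library the pair can be set against each other without any scaling between libraries. Arg2 made up 45.5%, 37.5% and 29.7% of arginase counts in the combination. It made up 29.4%, 8.20% and 12.5% in anti-PD-L1, 2.44%, 4.17% and 8.57% in minP1, and 21.2%, 0% and 8.93% in control. The 3 combination libraries had the highest shares of the 12, the lowest of them just above anti-PD-L1 replicate 1. Summed over libraries, Arg2 gave 37.1% of 159 arginase counts in the combination (95% exact binomial interval 29.6% to 45.1%), 14.4% of 167 in anti-PD-L1, 4.84% of 124 in minP1 and 10.0% of 120 in control (5.27% to 16.8%). This share was chosen after its values were seen and carries no test, and its interval covers counting error only.

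Nos2 (chromosome 11, 78920787 to 78960254, plus strand), the competitor for arginine, was barely detected. It had 0 counts in the 3 combination libraries, 1 in anti-PD-L1, 2 in minP1 and 1 in control, 4 in all. Zero combination counts allow up to 6.49 CPM (3 counts over the group). Fitted without the filter on low counts, over all 19921 symbols, Nos2 was not called in any of the 6 comparisons, and no ratio of arginase to Nos2 can be given.

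**Figure D2:**
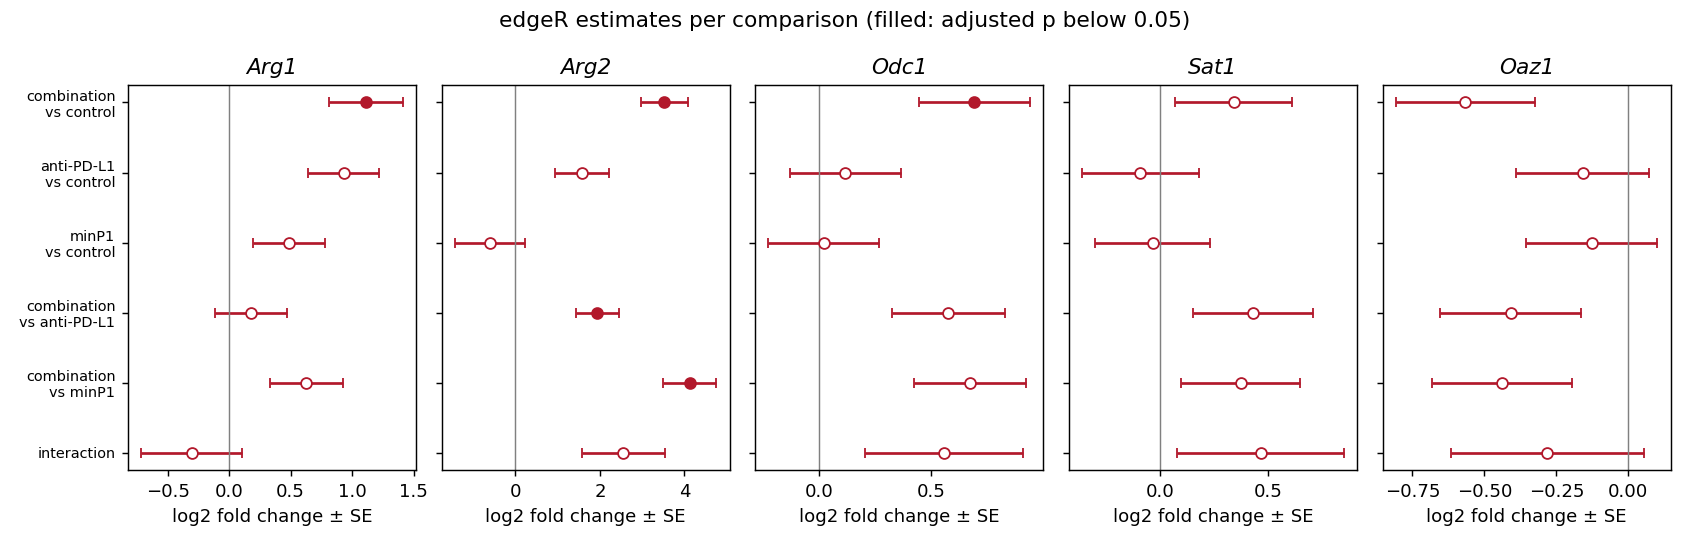
Log2 fold change ± SE (horizontal axis, range differs between panels) of the 5 genes that passed the filter, 1 row per comparison. Filled points have an adjusted p below 0.05. Arg1, Arg2 and Odc1 are filled for the combination against control, and Arg2 is also filled against each lone treatment.

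Odc1 (chromosome 12, 17544794 to 17551505, plus strand), which starts polyamine synthesis from ornithine, was called higher in the combination against control. Its levels were 384, 591 and 389 CPM in the combination, 351, 267 and 307 CPM in anti-PD-L1, 335, 282 and 244 CPM in minP1, and 343, 241 and 262 CPM in control. All 3 combination libraries lay above the 9 others, the lowest of them by a narrow margin, and replicate 2 was the highest. Against control alone, 45.9% of all genes tested had no overlap with the combination in 1 direction or the other. The difference from control was 0.69 ± 0.25 (adjusted p = 0.0335, 1.61-fold). It was not called without combination replicate 2 (0.51, adjusted p = 0.179), control replicate 2 (0.62, adjusted p = 0.108) or control replicate 3 (0.63, adjusted p = 0.109), when no filter was applied (0.63, adjusted p = 0.145), with the Bc1 level as a covariate (0.39, adjusted p = 0.374) or with the detected-genes covariate (0.19, adjusted p = 0.769). Against minP1 the combination's difference was 0.67 ± 0.25 (adjusted p = 0.0584) and against anti-PD-L1 it was 0.58 ± 0.25 (adjusted p = 0.165). Both were called without the 4 libraries that stood apart, at 0.81 against each (adjusted p = 0.0114 and 0.0175). The lone treatments stood close to control, at 0.12 ± 0.25 for anti-PD-L1 and 0.02 ± 0.25 for minP1, with 95% intervals of -0.39 to 0.63 and -0.49 to 0.53.

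Srm (chromosome 4, 148591503 to 148594993, plus strand), the next enzyme of the route, lay the other way, on few counts. It had 2, 1 and 0 counts in the combination, 2, 8 and 6 in anti-PD-L1, 11, 8 and 10 in minP1, and 28, 8 and 10 in control. As levels these are 7.68 ± 8.66 CPM in the combination, 20.8 ± 8.79 in anti-PD-L1, 34.5 ± 6.21 in minP1 and 43.9 ± 31.5 in control. All combination libraries were below all minP1 and all control libraries, and control replicate 1 was the highest of the 12. The scaled ratio of the combination to control was 0.151 (95% exact counting interval 0.0300 to 0.470). Srm was outside the main test. In the fit with no filter Srm fell by 2.70 in the combination against control (SE 0.73, adjusted p = 0.00423) and by 2.38 against minP1 (SE 0.77, adjusted p = 0.0409), and it was not called against anti-PD-L1 (-1.75 ± 0.84, adjusted p = 0.432).

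Sat1 (chromosome X, 155213132 to 155216449, minus strand), the breakdown enzyme, was not called anywhere. The combination libraries spread widely, at 230, 495 and 468 CPM, against 224, 337 and 327 CPM in anti-PD-L1, 309, 245 and 379 CPM in minP1, and 295, 289 and 369 CPM in control. Combination replicate 1 was among the lowest of the 12 libraries and replicates 2 and 3 were the highest. The combination differed from control by 0.34 ± 0.27 (95% interval -0.22 to 0.90, adjusted p = 0.346).

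Oaz1 (chromosome 10, 80826656 to 80829290, plus strand), the antizyme, was lower on average in the combination without being called. It was measured at 299, 406 and 271 CPM in the combination, 393, 463 and 437 CPM in anti-PD-L1, 444, 454 and 428 CPM in minP1, and 610, 391 and 446 CPM in control. One combination library lay inside the control range and the others below it. The difference from control was -0.57 ± 0.24 (adjusted p = 0.0704). Reads of Oaz1 are uncertain because the annotated processed pseudogene Oaz1-ps on chromosome 17 is 99.7% identical to it over 685 bases and took 338 counts against 1359 for Oaz1. Oaz1-ps was called lower by itself (-1.10 ± 0.32, adjusted p = 0.0114). With both counts summed, an alternative added after the data were seen, the level was 389 CPM in the combination and 621 CPM in control, and the fall of 0.63 (SE 0.24) passed the test (adjusted p = 0.0419).

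Odc1 and Oaz1 counts were also set against each other within each library. Odc1 made up 56.3%, 59.3% and 59.0% of the Odc1 and Oaz1 counts in the combination, 47.2%, 36.5% and 41.2% in anti-PD-L1, 43.0%, 38.3% and 36.3% in minP1, and 36.0%, 38.2% and 37.0% in control. No library of another group reached the combination range. Summed, the share was 58.5% in the combination (213 of 364 counts, 95% exact binomial interval 53.3% to 63.6%), 40.9% in anti-PD-L1, 39.2% in minP1 and 36.9% in control (303 of 822, 33.6% to 40.3%). As a ratio, the combination libraries had 1.29, 1.46 and 1.44 Odc1 counts per Oaz1 count, and the control libraries 0.563, 0.617 and 0.588. Like the arginase share, this measure was picked after the values were seen and has no p-value.

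**Figure D3:**
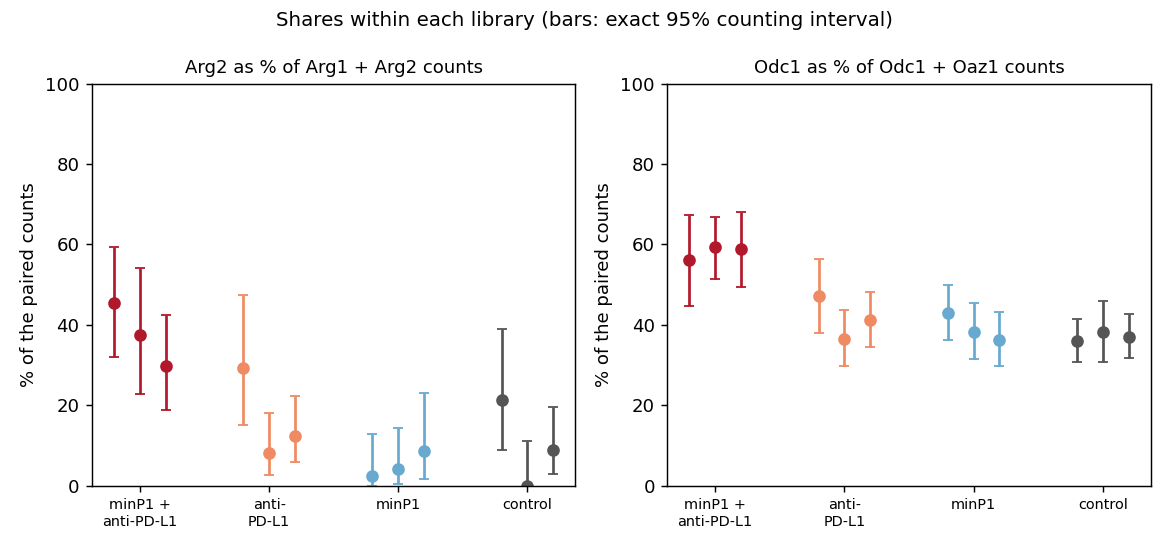
Percent of paired counts within each library, with the combination, anti-PD-L1, minP1 and control groups from left to right and bars for the exact 95% counting interval: Arg2 of both arginases, and Odc1 of Odc1 and Oaz1. The combination libraries are the highest in each panel, at 29.7% to 45.5% and 56.3% to 59.3%.

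The antizyme's own inhibitor, Azin1 (chromosome 15, 38487427 to 38519266, minus strand), is not among the 7 genes but belongs to the same step. It had 376, 406 and 457 CPM in the combination, 242, 230 and 210 CPM in anti-PD-L1, 181, 231 and 207 CPM in minP1, and 229, 176 and 195 CPM in control. The combination stood clear of all 9 other libraries. Azin1 rose by 1.05 ± 0.23 in the combination against control (adjusted p = 0.00138), by 1.0 ± 0.23 against minP1 (adjusted p = 0.00406) and by 0.87 ± 0.24 against anti-PD-L1 (adjusted p = 0.0261). With the detected-genes covariate the first 2 calls were lost (adjusted p = 0.0965 and 0.0613), and the third was lost when no filter was applied (0.78, adjusted p = 0.185) and without any 1 of the 3 combination libraries or anti-PD-L1 replicate 2 or 3 (0.78 to 0.96, adjusted p up to 0.133). Azin1 made up 56.1% of Azin1 and Oaz1 counts in the combination, 34.0% in anti-PD-L1, 31.9% in minP1 and 29.3% in control. The antisense transcript Gm49077 overlaps the gene's 5′ end.

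Across the 5 genes tested, 3 were called in the combination against control, all higher, where 34.8% of all genes were called and 16.5% called higher. In each comparison of the combination with a lone treatment 1 was called. Over all genes 6.94% were called against anti-PD-L1 and 20.0% against minP1. In either lone treatment against control and in the interaction 0 of the 5 were called. Arg2 is one of the 3 and had passed the filter through the combination, so this count is a description. The 5 also leave out Srm, which missed the filter and was low in the combination. With no filter, Arg1 and Arg2 were called higher in the combination against control and Srm lower (-2.70, adjusted p = 0.00423), where 9.66% of all symbols were called. Odc1 was not called in that fit (0.63, adjusted p = 0.145). The median difference of the 5 genes in the combination against control was 0.69, and that of all genes tested was -0.06. In anti-PD-L1 against control the medians were 0.12 for the 5 genes and -0.03 for all genes, and in minP1 against control they were -0.03 and -0.004. Groups without overlap were frequent too: 45.9% of all genes tested had combination libraries entirely on 1 side of the control libraries.

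In the wider pathway called genes lay in both directions and were no more frequent than over all genes. Lists of arginine and polyamine metabolism (9 in all) held 55 genes beside the members, of which 50 were in the tables and 22 were tested. In the combination against control 3 were called higher and 4 lower, so 7 of 22 against the 34.8% called over all genes, and the median difference of the 22 was -0.16. Against anti-PD-L1 1 rose (Azin1) and 1 fell (Spr). Against minP1 2 rose (Azin1 and Atp13a3) and 3 fell (Spr, Amd2 and Mtap). None was called in either lone treatment against control or in the interaction.

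Of arginine uptake, Slc7a2, a cationic amino acid transporter of macrophages and liver, rose in the combination. It was measured at 111, 119 and 102 CPM in the combination and 45.8, 47.5 and 33.6 CPM in control, with anti-PD-L1 spread over both ranges at 115, 66.7 and 44.8 CPM and minP1 at 45.2, 87.9 and 23.1 CPM. The difference of 1.40 ± 0.41 from control (adjusted p = 0.0113) was lost at equal depth (0.90, adjusted p = 0.156), with the Bc1 covariate (0.67, adjusted p = 0.349), with the detected-genes covariate (0.66, adjusted p = 0.516) and without control replicate 3 (1.23, adjusted p = 0.0507). Its close relative Slc7a1 differed by 1.0 ± 0.40 (adjusted p = 0.0509). Slc3a2, the heavy chain that several amino acid transporters share, fell by 1.71 (SE 0.53, adjusted p = 0.0155), on 8 counts in the combination and 61 in control, and no combination library reached the filter's level. That call was lost without combination replicate 1 (-1.41, adjusted p = 0.0732) or 2 (-1.43, adjusted p = 0.0904) and with the Bc1 and the detected-genes covariates (-1.66, adjusted p = 0.0812, and -1.51, adjusted p = 0.205). Slc7a6 was at -0.21 ± 0.49.

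In the nitric oxide branch 3 genes were tested, all of them for the cofactor tetrahydrobiopterin. Spr, which completes its synthesis, had 8.54, 29.8 and 5.64 CPM in the combination, 60.4, 48.2 and 62.0 CPM in anti-PD-L1, 79.0, 80.6 and 65.9 CPM in minP1, and 65.8, 80.4 and 64.9 CPM in control. The combination was below all 9 other libraries, on 7 counts. Spr fell by 2.17 against control (SE 0.48, adjusted p = 0.00138), by 2.27 against minP1 (SE 0.48, adjusted p = 0.00214) and by 1.87 against anti-PD-L1 (SE 0.51, adjusted p = 0.0270). The first 2 calls held under all 22 settings that gave a value. The third was lost with DESeq2 (adjusted p = 0.0541), without anti-PD-L1 replicate 2 (-2.0, adjusted p = 0.0578) or 3 (-1.79, adjusted p = 0.114), without combination replicate 1 (-1.64, adjusted p = 0.128) or 3 (-1.43, adjusted p = 0.114), and without the 4 libraries that stood apart (-1.36, adjusted p = 0.115). Gch1, the first enzyme of that route, was at 0.17 ± 0.47 and Qdpr, which recycles the cofactor, at 0.23 ± 0.30 in the combination against control.

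Among genes of ornithine, proline and creatine, Oat was at 0.50 ± 0.41 and Gatm at 0.30 ± 0.28 in the combination against control, neither of them called. The supply of aminopropyl groups for spermidine and spermine gave 2 falls among 7 tested genes and no rise, against the 34.8% called over all genes. Mtap, which salvages the by-product of spermidine synthesis, was at 17.1, 29.8 and 33.9 CPM in the combination, 54.4, 77.9 and 55.1 CPM in anti-PD-L1, 71.5, 69.6 and 72.4 CPM in minP1, and 100.2, 106 and 116 CPM in control. The combination and control groups stood at opposite ends with no overlap to either lone treatment. Mtap fell by 1.93 in the combination against control (SE 0.37, adjusted p = 0.000418), a call that held under all 23 settings. Against minP1 it fell by 1.33 (SE 0.40, adjusted p = 0.0198), and this was lost in 9 of the 23 settings, with adjusted p-values up to 0.136, among them leaving out combination replicate 1 or 2 or minP1 replicate 1 or 3.

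Amd2, a copy of the S-adenosylmethionine decarboxylase gene Amd1 that is 99.6% identical to it over 3202 bases, fell by 1.26 (SE 0.41, adjusted p = 0.0207), while Amd1 was at -0.56 ± 0.41. Their reads may be shared. Summed, they stood at 70.5 CPM in the combination and 139 CPM in control, and the difference of -0.86 ± 0.34 was not called (adjusted p = 0.0521). Amd2's own call was lost in 9 of 23 settings, with adjusted p-values up to 0.412, among them leaving out control replicate 2 or combination replicate 1 or 2. Against minP1 Amd2 fell by 1.29 (SE 0.42, adjusted p = 0.0319), and that call too was lost in 9 settings, among them leaving out combination replicate 1 or 2 or minP1 replicate 1 or 3. Sms, the spermine synthase, was at -0.85 ± 0.37 (adjusted p = 0.0786), Mat2a at 0.37 ± 0.37 and Mat2b at -0.23 ± 0.40.

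Atp13a3, a P-type ATPase that takes part in polyamine uptake, rose by 1.24 ± 0.33 in the combination against control (adjusted p = 0.00585). Its levels were 162, 167 and 118 CPM in the combination, 103, 85.3 and 58.5 CPM in anti-PD-L1, 86.5, 51.3 and 79.0 CPM in minP1, and 40.1, 73.1 and 73.9 CPM in control. The combination was above the 9 other libraries. With the detected-genes covariate the call was lost (1.46, adjusted p = 0.0816), and the rise against minP1 of 1.03 ± 0.33 (adjusted p = 0.0309) was lost in 9 of 23 settings, with adjusted p-values up to 0.110, among them leaving out combination replicate 1 or 2 or minP1 replicate 2 or 3. Eif5a, whose protein carries the spermidine-derived residue hypusine, stood at 724 CPM in the combination and 775 CPM in control (-0.10 ± 0.23, 95% interval -0.57 to 0.36), and Dhps, which starts that modification, at -0.16 ± 0.38. Oaz2, a second antizyme, was at -0.15 ± 0.52.

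**Figure D4:**
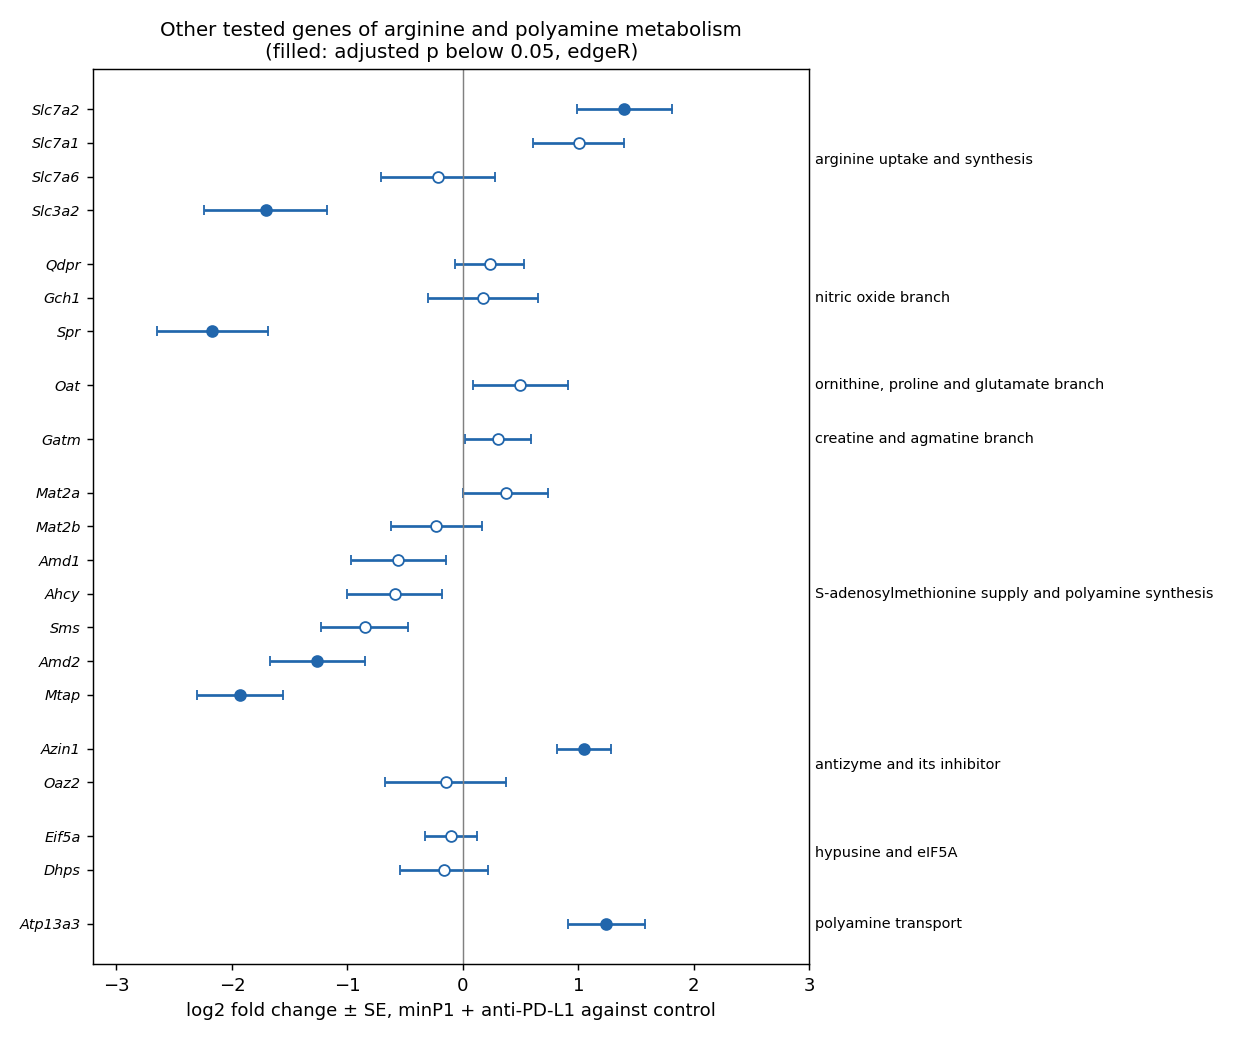
Log2 fold change ± SE of 21 of the 22 other tested genes of arginine and polyamine metabolism in the combination against control, grouped by list. Filled points have an adjusted p below 0.05: Slc7a2, Azin1 and Atp13a3 to the right of 0, and Slc3a2, Spr, Amd2 and Mtap to the left.

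The 28 pathway genes in the tables that were not tested summed to 77 counts in the combination, 164 in anti-PD-L1, 176 in minP1 and 302 in control. They reached 137 to 197 CPM per library in the combination and 249 to 323 CPM in control. Genes of low counts lay lower in the combination in general. With no filter the median difference from control over all 19921 symbols was -0.29, and over the genes tested it was -0.06. Without the filter Ddah2, which degrades an inhibitor of nitric oxide synthases (1 count in the combination, 27 in control, adjusted p = 0.0199), and Adi1 of the methionine salvage route (1 and 23 counts, adjusted p = 0.0451) were called lower in the combination against control. That fit called 9.66% of all symbols. All 3 genes of polyamine breakdown beside Sat1 (Smox, Paox and Sat2) were among the untested.

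Genes that are known to regulate the arginases or to mark the macrophage states they belong to were listed as well. Of 18 regulators 14 were tested, and in the combination against control 5 were called higher and 1 lower, so 6 of 14 against the 34.8% called over all genes. Stat3, a transcription factor downstream of interleukin-6 and interleukin-10, was at 307, 322 and 350 CPM in the combination and 65.8, 91.4 and 121 CPM in control. It rose by 1.80 ± 0.27 (adjusted p = 2.91e-05) and also against minP1 (1.36 ± 0.27, adjusted p = 0.00104) and anti-PD-L1 (1.14 ± 0.27, adjusted p = 0.0118, lost without anti-PD-L1 replicate 3 at 0.0759). Cebpb, which acts at the Arg1 enhancer in macrophages, stood at 636 ± 144 CPM in the combination, 568 ± 37.1 in anti-PD-L1, 393 ± 53.9 in minP1 and 336 ± 17.2 in control. It rose by 0.92 ± 0.23 against control (adjusted p = 0.00363, and 0.0715 with the detected-genes covariate). The interferon gamma receptor chain Ifngr1 rose by 1.68 ± 0.32 (adjusted p = 0.000406), the interferon-induced factor Irf1 by 1.28 ± 0.33 (adjusted p = 0.00477) and Klf4 by 0.90 ± 0.26 (adjusted p = 0.00861, and 0.0743 with the detected-genes covariate). Irf1 was also called in anti-PD-L1 against control, at the edge of the threshold (1.28 ± 0.32, adjusted p = 0.04998), and this call was lost without any 1 of control replicates 1 and 2, the 3 anti-PD-L1 libraries, minP1 replicate 1 or combination replicate 2, and with the detected-genes covariate (adjusted p = 0.205). Stat6, which carries the interleukin-4 signal to Arg1, fell by 1.80 (SE 0.67, adjusted p = 0.0382) on 6 combination and 50 control counts, and 9 of 21 settings, among them leaving out each combination library, control replicates 1 and 3 and all 4 libraries that stood apart, ended that call. It had passed the filter through 2 control libraries and 1 minP1 library.

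Of 12 genes of alternative activation, 11 were in the tables and 3 were tested. The lectin receptors Mrc1 and Clec10a rose in the combination, and Retnla was not called (1.83 ± 0.95, adjusted p = 0.138). Mrc1 had 632, 376 and 350 CPM in the combination and 272, 194 and 148 CPM in control (1.13 ± 0.29, adjusted p = 0.00439; 0.81 and an adjusted p of 0.116 with the Bc1 covariate; 0.76 and 0.266 with the detected-genes covariate). Clec10a had 205, 53.7 and 56.4 CPM in the combination and 11.4, 3.66 and 2.24 CPM in control (4.02 ± 0.75, adjusted p = 0.000315, and 0.180 with the detected-genes covariate). It had passed the filter through the combination and 1 anti-PD-L1 library, and with no filter the difference was 3.94 ± 0.59 (adjusted p = 2.77e-09). Of 10 genes of classical activation 4 were tested and Tnf rose, by 3.11 ± 0.62 (adjusted p = 0.000567, and 0.110 with the detected-genes covariate), on 34 combination and 9 control counts. Tnf had passed the filter through the 3 combination libraries alone, and with no filter it rose by 3.04 ± 0.58 (adjusted p = 7.96e-06). Il1b (0.29 ± 0.53) and Cxcl10 (0.83 ± 0.36, adjusted p = 0.0714) were not called.

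Markers of the cells that could hold these transcripts moved with the groups. The 10 macrophage markers summed to 1796 to 4038 CPM in the combination, 892 to 1475 in anti-PD-L1, 719 to 1189 in minP1 and 799 to 1060 in control. Of 6 tested 4 rose in the combination against control, among them C1qc, Ms4a7 and Apoe, where 16.5% of all genes tested were called higher. C1qb was not called (-0.48 ± 0.42), and the untested markers Mertk (7.57 CPM in the combination, 17.7 in control) and Cd68 (1.99 and 4.35 CPM) were lower on average in the combination, on few counts. Apoe gave the largest part, 1257 ± 589 CPM in the combination and 177 ± 58.9 CPM in control. The 7 monocyte markers summed to 1945 to 2373 CPM in the combination, 1656 to 2356 in anti-PD-L1, 1479 to 1897 in minP1 and 1070 to 1433 in control. In the combination 4 of 6 tested were called higher, among them Plac8, which had passed the filter through the combination and 1 anti-PD-L1 library. Ccr2 (131 CPM in the combination, 151 in control) and Ly6c2 (64.9 and 39.0 CPM) were not called. Fn1 gave the largest part of the sum (1148 and 761 CPM), then Ly6a (502 and 202 CPM). The neutrophil markers, 10 of 12 in the tables, summed to 615 to 691 CPM in the combination, 238 to 319 in anti-PD-L1, 245 to 319 in minP1 and 325 to 386 in control. S100a9, Mmp9, Csf3r and Hdc rose and Cxcr2 fell. Mmp9 and Hdc had passed the filter through the 3 combination libraries alone, and with no filter they rose by 5.53 ± 0.60 (adjusted p = 1.72e-17) and 3.11 ± 0.51 (adjusted p = 9.93e-08). The defining genes Ly6g and Retnlg were at 0 in the combination while S100a8 had 2 counts. They were sparse elsewhere too: in anti-PD-L1, minP1 and control Ly6g had 2, 1 and 0 counts, Retnlg 3, 2 and 7, and S100a8 2, 3 and 2. T cell markers summed to 152 to 248 CPM in the combination and 32.9 to 56.0 CPM in control. Thy1 gave the largest part (106 and 32.6 CPM), was the only 1 tested and rose. The rest had few counts in the combination and control: Cd2 18 and 3, Cd3e 6 and 1, Cd4 6 and 0, Cd3d 2 and 4, Cd3g 3 and 4, Cd8a 1 and 4. Cycling-cell markers summed to 1152 to 1283 CPM in the combination and 1597 to 1743 CPM in control. Mki67, Top2a (217 and 566 CPM) and Rrm2 fell, 3 of 7 tested. Mcm2 (97.2 and 62.4 CPM) and Mcm5 (196 and 120 CPM) were higher on average, Pcna (519 and 541 CPM) and Tyms lower, none of them called. Erythroid markers summed to 863 to 2274 CPM in the combination and 1414 to 2801 CPM in control, and Hbb-b1 fell by 4.09 (SE 0.64) and Hbb-b2 fell by 5.26 (SE 0.82), 2 of 4 tested. Fibroblast markers summed to 739 to 1229 CPM in the combination and 942 to 1359 CPM in control, and Col1a2 fell by 0.81 (SE 0.21) and Pdgfra fell by 2.05 (SE 0.57), also 2 of 4. Col1a1 (334 and 224 CPM) and Col3a1 (85.7 and 79.2 CPM) were higher on average and not called. Of the untested, Lum (62.6 and 15.8 CPM) and Fap (4.83 and 2.86 CPM) were higher on average. Dcn (21.5 and 28.2 CPM) and Pdgfrb (21.2 and 26.3 CPM) were lower, on few counts. Endothelial markers, none of them tested, summed to 29.8 to 76.8 CPM in the combination and 7.31 to 22.9 CPM in control, on 21 and 19 counts. Pecam1 had 15 and 4 of these, Cdh5 4 and 10, Cldn5 2 and 0, Kdr 0 and 5, and Vwf none. The part of cell composition in the differences of Arg1, Arg2, Odc1 and the pathway genes was not tested.

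**Figure D5:**
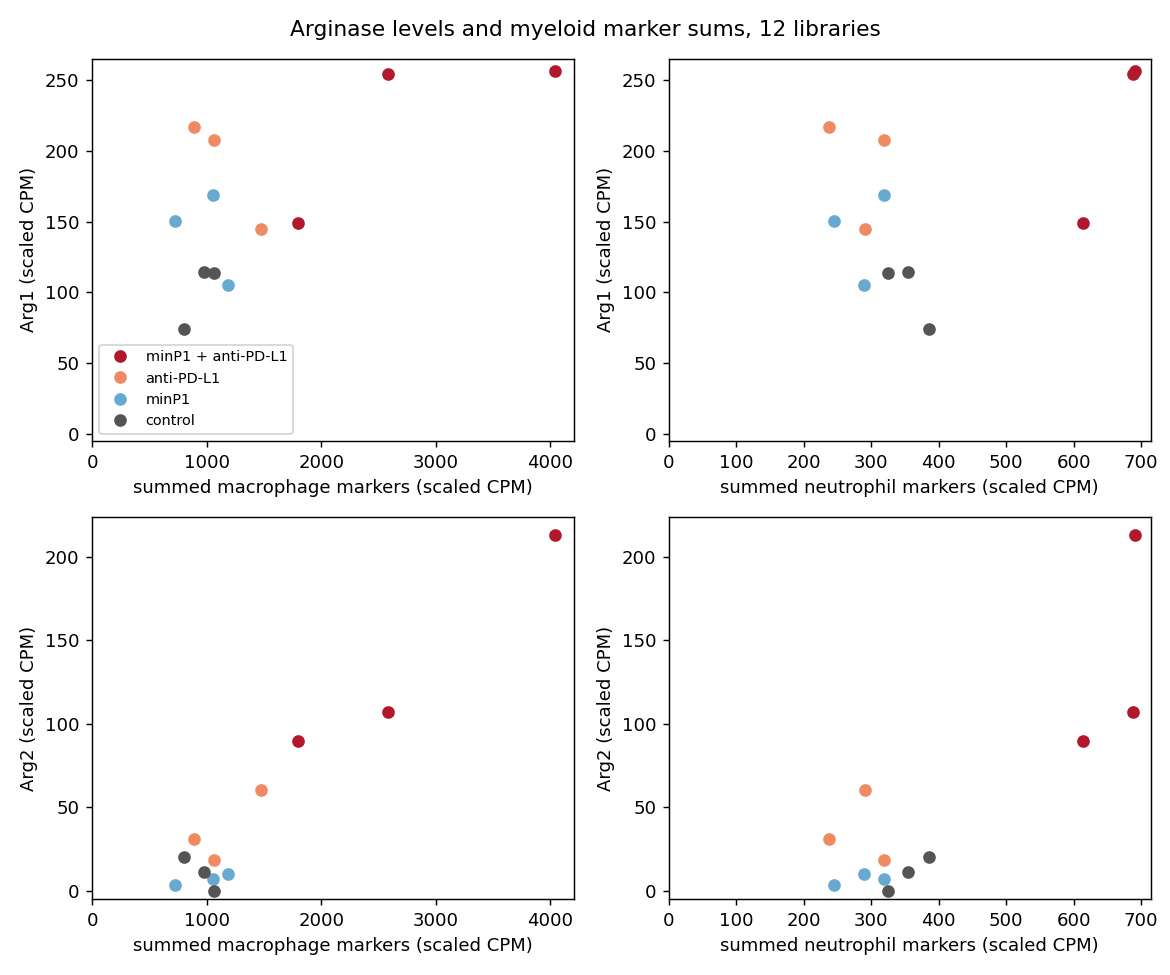
Level of Arg1 and Arg2 (scaled CPM, vertical axes) against the summed macrophage and neutrophil marker levels (scaled CPM, horizontal axes), 1 point per library for the 12 libraries, coloured by group. The 3 combination libraries lie at the right of each panel, beyond the other groups' marker ranges.

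The genes whose levels followed each member most closely over the 12 libraries are given as a description, by Pearson's r of log2 CPM with a prior count of 2. The libraries share group, depth and the Bc1 gradient. For Arg1 they were Zfp36l2 (0.91), Cebpb (0.91) and Ms4a4b (0.90), and Nradd lay farthest (-0.88). For Arg2 they were Tpst2, Atp6v0c and Max (0.96, 0.96 and 0.95), with the cyclin gene Ccnd1 farthest (-0.96, at 286 ± 33.5 CPM in the combination, 754 ± 146 in anti-PD-L1, 1231 ± 48.4 in minP1 and 1251 ± 315 in control). For Odc1 they were Ppie (0.91), the proteasome assembly gene Pomp (0.90) and the copper transporter Slc31a1 (0.90), with Gabpb2 farthest (-0.95). For Sat1 they were LOC108168018 (0.92), Morf4l1-ps1 (0.86) and Rbbp5 (0.83), with Senp1 farthest (-0.91). For Oaz1 they were the ribosomal protein gene Rps14 (0.91), Heatr3 (0.91) and Tacc3 (0.90), with Rnf145 farthest (-0.91). Among the members, Arg2 and Odc1 had an r of 0.73 and Arg1 and Arg2 one of 0.57, and Oaz1 ran against Arg1 (-0.71) and Arg2 (-0.60), while Sat1 stayed between -0.13 and 0.31 with all 4 others.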

How the data were processed

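Each sample had 1 deposited table of raw counts, whole numbers by gene symbol. The tools named, with no roles, are Bowtie2 (2.2.5), DESeq2 and R (3.6.1), and the build is mm10, per the submitters' processing notes. Not given in the sources used here are the counter, its annotation and its handling of strand and multi-mapping reads.

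Genes were filtered with filterByExpr (edgeR 4.0.16, R 4.3.3) at its defaults, leaving 5443 of 19921 symbols with 89.8% to 93.6% of each library's counts, scaled by TMM, and tested with edgeR's quasi-likelihood test on all 12 samples with 1 mean per group (Benjamini-Hochberg, threshold 0.05, prior count 0.125, common dispersion 0.0506). The 6 comparisons were the combination, anti-PD-L1 and minP1 against control, the combination against anti-PD-L1 and against minP1, and the interaction. The fits were tested on simulated data. Alternatives were DESeq2 1.42.0 and its size factors in edgeR, no filter, thinning every library to 133917 counts, only the groups compared, a replicate block, covariates (Bc1 level, genes detected at equal depth), leaving out libraries, and, added after the data were seen, summing near-identical copies and leaving out the library of each group with the largest chi-square distance to its replicates.

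An exact permutation test of 3 against 3 cannot go below 0.1, so none was used. No molecular identifiers are recorded for the reads, so the intervals and floors hold counting error alone. The 5′ tags were not scaled to transcript length, and levels are compared between groups. The members and lists were chosen with earlier results of these data known. All 7 members are named, with every pathway gene called and up to 4 of the highest per list, and the 3 most and 1 least correlated genes per tested member. Positions are from the GENCODE annotation of GRCm38. Some tested genes of the lists are not reported here. No sequences are printed.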

Additional observations from a re-analysis of the deposited data

How the results depend on the processing

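The results were recomputed under 23 alternative settings, 12 of them leaving out 1 library. The 7 members gave 3 calls in the combination against control (1892 over all genes tested) and 1 with the detected-genes covariate (407). Against anti-PD-L1 their 1 call, Arg2 (378 over all genes), became 0 at equal depth, where Arg2 missed the filter (299 of 2794). It became 0 with that covariate (328) and with DESeq2, which gave Arg2 no adjusted p (331). Leaving out 1 library gave 0 to 1, and the fits that gave 0 had 94, 111 and 129 calls over all genes. Against minP1 their 1 call (1088 over all genes) became 2 without the filter (Srm added, 1003 of 19921). It became 2 with the replicate block (Odc1 added, adjusted p = 0.045, 1234 over all genes) and with copies summed (Odc1 added, 1097). Leaving out 1 library gave 1 to 2. The 7 pathway calls in the combination against control became 3 at equal depth (1099 of 2794 over all genes) and 3 with the detected-genes covariate (407). Against anti-PD-L1 the 2 pathway calls became 1 with DESeq2 (331), 1 without the filter (397 of 19921) and 1 with only the groups compared (385 of 3107). Leaving out 1 library gave 0 to 2. Against minP1 the 5 became 2 with DESeq2 (839), 2 without the filter (1003 of 19921) and 3 at equal depth (736 of 2794). They became 2 with the Bc1 covariate (650) and 1 with the detected-genes covariate (292), and 2 to 6 on leaving out 1 library. Leaving out the 4 libraries that stood apart gave the members 1 call in anti-PD-L1 against control (Arg1, 282 over all genes). It gave 2 in the combination against anti-PD-L1 (1028) and 2 against minP1 (1656), with Odc1 added to each. That fit had 2 libraries a group, whose spread is narrower by this choice. The cause of the other changes was not tested.

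Some differences that were never called changed sign. For minP1 against control, Odc1 stood at -0.063 with the Bc1 covariate and -0.11 with the detected-genes covariate, and Sat1 at 0.062 and 0.047 with the same covariates and at 0.10 once replicate 2 of minP1 and replicate 1 of anti-PD-L1 were dropped. For anti-PD-L1 against control, Odc1 stood at -0.10 and -0.25 with the covariates, and Sat1 at 0.17, 0.13 and, with that pair dropped, 0.070. Without the 4 libraries that stood apart, minP1 against control gave 0.054 for Arg2, 0.072 for Sat1 and 0.073 for Oaz1, anti-PD-L1 against control 0.023 for Sat1 and 0.12 for Oaz1, and the combination against anti-PD-L1 -0.090 for Arg1. Leaving out 1 library spanned, in minP1 against control, -1.05 to 0.070 for Arg2, -0.10 to 0.19 for Odc1, -0.20 to 0.11 for Sat1 and -0.25 to 0.085 for Oaz1, and in anti-PD-L1 against control -0.18 to 0.072 for Sat1 and -0.26 to 0.078 for Oaz1. Replicate numbers were shared between groups, and deviations of same-numbered libraries had low correlations (-0.14 to 0.21 over 18 pairs). Those with a control library were all above 0, at 0.00047 to 0.13. Differently numbered pairs ranged from -0.32 to 0.32. Whether same-numbered libraries share a batch was not tested, and the replicate block was read as an alternative only. Depth limits Nos2 and Srm: for Nos2 a count of 0 over the combination allows up to 6.49 CPM, and Srm had 3 counts there.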
